A study of Mus musculus with 3 samples.

Results

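A set of 10 genes of the myofibroblast programme was examined in mouse cornea, chosen by symbol from the 21760 genes of the deposited count table, and all 10 were found there. They were Acta2, Tagln, Myl9 and Cnn1, which encode parts of the contractile apparatus, and Tnc, Fn1, Cthrc1, Thbs1, Sparc and Loxl2, which encode secreted proteins that bind, signal from or crosslink the matrix. RNA was sequenced from the cornea, the clear window of the eye, in 3 libraries, 1 for each group. In the sham group a cut was made at the site of the lacrimal glands and the glands stayed in place. In the excision group the tear-producing lacrimal gland was removed, a surgical model of dry eye, and in the last group the eyes received PNU-282987, which activates nicotinic receptors of the α7 type, as drops 3 times a day. The labels do not say whether the PNU-282987 mice had also lost the gland, and they give no strain, age, vehicle or number of corneas in a library.

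Keratocytes, the resident cells of the corneal stroma, can turn into myofibroblasts after injury. TGF-β and mechanical tension drive this change, in which the cells assemble stress fibres that contain smooth muscle actin and lay down a provisional matrix. Serum response factor with its MRTF cofactors transcribes the contractile genes, while matricellular proteins such as tenascin C and thrombospondin 1 act on cell adhesion and on growth factor activity rather than as structural fibres. In the cornea the programme is known for wound closure and for haze.

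Total counts were between 37692972 and 39616004 per library. Every value is a single library, so a ratio compares 2 libraries and could not be set against the spread between animals, and no test was made. Ratios of scaled counts are given with a 95% interval that covers counting error only. Below, "higher" and "lower" in a count of genes mean a ratio of 2-fold or more whose interval leaves out equal levels. Of 10 corneal epithelial markers 9 were in the table and none was at 0, and Krt12, the cornea-specific keratin, had counts of 1541851 (sham), 1135144 (excision) and 1634592 (PNU-282987). Krt15, another keratin of that list, had counts of 65935 (sham), 137853 (excision) and 241041 (PNU-282987). It was 2.20-fold higher in excision than in sham (2.18 to 2.22) and 3.68-fold higher in PNU-282987 than in sham (3.64 to 3.71). No other marker of the list was higher or lower in any comparison. Marker transcripts of other tissues and of the corneal endothelium also differed between the libraries. In excision 13 of 14 lens markers and 7 of 9 corneal endothelial markers were lower than in sham. In PNU-282987 8 of 13 measured goblet and gland markers were higher than in excision. In such bulk samples fewer cells of a type and less RNA per cell cannot be told apart.

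Of the 10 genes, 9 had at least 20 counts in every library, and Cnn1 was under that number in all of them. In excision against sham 4 of the 9 measured genes were lower (Cthrc1, Loxl2, Myl9 and Thbs1) and 1 was higher (Tnc). Over all 14170 genes with a ratio, 5.48% were lower and 4.01% higher. The median log2 ratio was -0.62 for the 9 genes and -0.0028 for all genes. The genes did not share a direction: Acta2 and Sparc were lower by less than 2-fold, Fn1 was slightly higher and Tagln could not be told from sham at this depth.

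**Figure D1:**
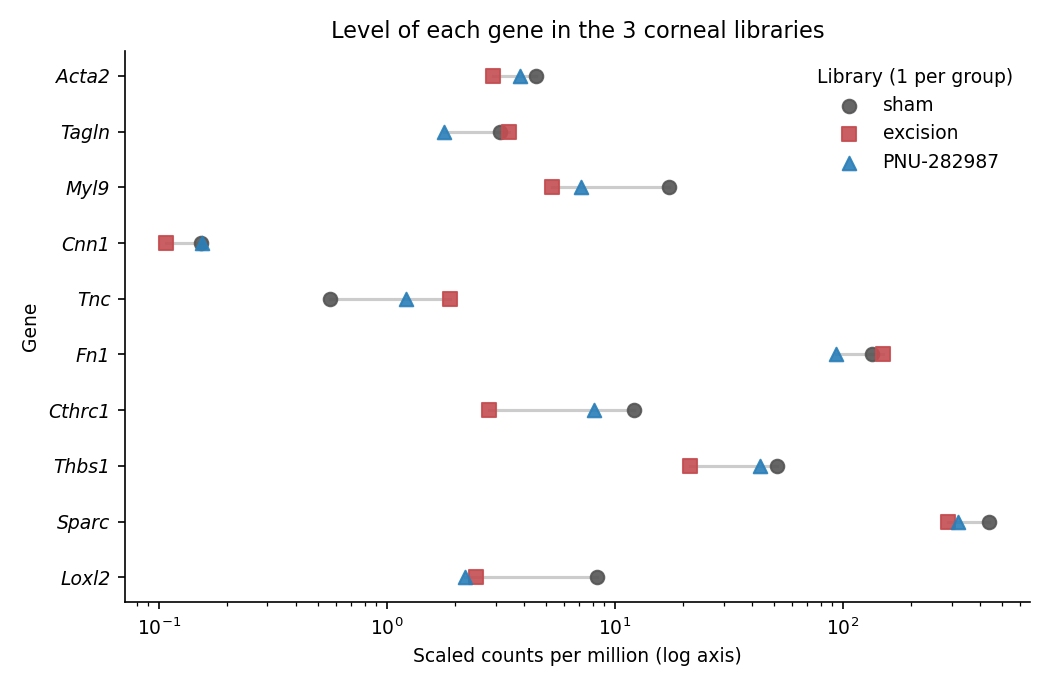
Level of each of the 10 genes in CPM (counts scaled to library size with TMM factors, horizontal log axis), with 1 point for each library and a grey line from the lowest to the highest. Levels run from about 0.108 for Cnn1 to 436 for Sparc, and Tnc is the only gene whose lowest point is sham and highest is excision.

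Of the contractile genes, Myl9 was the most abundant per kilobase of exon in each library, at 15.3 CPM (counts scaled to library size) in sham, while Acta2, Tagln and Cnn1 were at 2.21 or less. Acta2, which encodes α-smooth muscle actin and is the usual marker of myofibroblasts, had counts of 176 (sham), 109 (excision) and 149 (PNU-282987). The excision library was the lowest of the 3, and sham and PNU-282987 overlapped within counting error. Acta2 was 1.53-fold lower in excision than in sham (95% interval 1.202 to 1.97), 1.31-fold higher in PNU-282987 than in excision (1.01 to 1.69) and 1.17-fold lower in PNU-282987 than in sham (0.939 to 1.47). Its coding sequence is close to those of the other muscle actins, with which reads could be shared: Actg2 had 12, 13 and 7 counts and Acta1 had 11, 0 and 4 in sham, excision and PNU-282987.

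Tagln, which encodes the actin-binding protein transgelin (SM22α), had counts of 123 (sham), 128 (excision) and 69 (PNU-282987). Here PNU-282987 was the low library, and sham and excision could not be told apart (1.09-fold higher in excision, 0.848 to 1.41). Tagln was 1.94-fold lower in PNU-282987 than in excision (1.44 to 2.64) and 1.77-fold lower than in sham (1.31 to 2.42), both short of 2-fold. Its order of libraries thus differed from that of Acta2, although both are classical targets of serum response factor.

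Myl9, the regulatory myosin light chain of smooth muscle and other contractile cells, had counts of 675 (sham), 197 (excision) and 275 (PNU-282987). Sham stood well above both other libraries. Myl9 was 3.26-fold lower in excision (2.77 to 3.84) and 2.44-fold lower in PNU-282987 (2.12 to 2.82) than in sham, and 1.33-fold higher in PNU-282987 than in excision (1.11 to 1.61). The related light chain genes Myl12a (23785, 22249 and 22675 counts in the sham, excision and PNU-282987 libraries) and Myl12b (15439, 14434 and 18029 counts) were far more abundant and within 2-fold in every comparison.

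Cnn1, which encodes calponin 1, a late marker of smooth muscle differentiation, had 6, 4 and 6 counts in the sham, excision and PNU-282987 libraries. At this depth no difference could be seen, and the interval for excision against sham ran from 6.87-fold lower to 2.96-fold higher. The other calponin genes, Cnn2 (2498, 1992 and 1937 counts) and Cnn3 (8713, 6716 and 7730 counts), were abundant and within 2-fold.

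In excision against sham the 3 measured contractile genes differed from one another by more than counting error. A ratio of 2 genes within a library does not depend on how libraries are scaled. Relative to Myl9, Tagln was 3.56-fold higher in excision than in sham (exact conditional 95% interval 2.63 to 4.83) and Acta2 2.12-fold higher (1.57 to 2.85). Acta2 was 1.68-fold lower relative to Tagln (1.17 to 2.41). Between PNU-282987 and excision the ratios of Acta2 and Myl9 could not be told apart (0.979, 0.712 to 1.35), while Tagln was 2.59-fold lower relative to Myl9 (1.81 to 3.72). These intervals again cover counting error only, and 9 pairs of genes were compared in this way in each of the 3 comparisons.

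Because contractile genes share a regulator, the promoters of the members were searched for its site. RefSeq promoters (GRCm38.p6, 250 bases before to 50 after the start) were matched for 5 of the 10 genes, namely Acta2, Cnn1, Myl9, Sparc and Tnc, the last with 2 starts. Motifs were searched on both strands as exact matches. They were the CArG box bound by serum response factor (CCWWWWWWGG, W being A or T), the TEAD motif GGAATG and the AP-1 motif TGANTCA. An exact CArG box was present in 1.63% of 32851 promoters of this length, and among the members in Myl9 alone. The TEAD motif was present in 14.7% of promoters and among the members in Acta2 alone, and the AP-1 motif was in 7.81% and in no member matched. The 250 bases before the start of the 2 genes with a match follow, 5′ to 3′ on the strand of the gene, with the CArG box in capitals for Myl9, from 161 bases before the start, and the TEAD motif in capitals for Acta2, from 146 bases before the start. Myl9 lies at chr2:156775214-156775463 on the plus strand and Acta2 at chr19:34255374-34255623 on the minus strand.
Myl9: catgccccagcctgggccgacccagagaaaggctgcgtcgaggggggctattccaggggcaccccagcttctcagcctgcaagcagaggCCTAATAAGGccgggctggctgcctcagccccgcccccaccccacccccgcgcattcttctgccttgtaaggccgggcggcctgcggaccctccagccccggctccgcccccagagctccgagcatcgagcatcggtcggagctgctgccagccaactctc
Acta2: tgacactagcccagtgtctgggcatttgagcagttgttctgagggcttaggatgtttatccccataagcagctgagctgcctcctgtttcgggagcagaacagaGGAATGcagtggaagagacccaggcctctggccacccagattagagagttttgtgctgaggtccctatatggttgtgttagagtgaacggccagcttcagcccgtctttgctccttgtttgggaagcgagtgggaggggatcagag
A match is a description of the sequence, and its absence says only that these exact letters were not in this window. This holds for Cnn1, Sparc and Tnc, and for the CArG box in Acta2. The Acta2 sequence holds ccctatatgg and ccttgtttgg, each of which differs from the CArG pattern by a letter and was not counted.

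Among the matricellular genes, Sparc was by far the most abundant, and Fn1 was second in each library. Per kilobase of exon, Sparc reached 160 CPM in the sham library, 106 in that from excision and 118 in that from PNU-282987. Fn1 was at 15.8, 17.7 and 10.96 on the same scale, next to Myl9 at 15.3, 4.70 and 6.28. Cthrc1 followed at 10.4, 2.40 and 6.96 and Thbs1 at 8.83, 3.66 and 7.38, whereas Acta2 was at 2.21, 1.44 and 1.89. The levels of Tnc were the lowest of the measured genes, at 0.0725, 0.243 and 0.156 per kilobase.

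Tnc encodes tenascin C, a hexameric glycoprotein that is scarce in the resting cornea and deposited at wound edges. It had counts of 22 (sham), 70 (excision) and 47 (PNU-282987), so sham was the low library and excision the high one. Tnc was 3.35-fold higher in excision than in sham (2.05 to 5.68) and 2.15-fold higher in PNU-282987 than in sham (1.27 to 3.74). PNU-282987 was 1.56-fold lower than excision (1.06 to 2.31). It was the only one of the 9 measured genes that was above sham in both other libraries by at least 2-fold.

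Fn1 encodes fibronectin, the adhesive glycoprotein of the provisional wound matrix and a ligand of α5β1 integrin. Its counts were 5239 (sham), 5572 (excision) and 3609 (PNU-282987). PNU-282987 was the low library, and sham and excision were close. Fn1 was 1.12-fold higher in excision than in sham (1.08 to 1.16), 1.62-fold lower in PNU-282987 than in excision (1.55 to 1.68) and 1.44-fold lower in PNU-282987 than in sham (1.38 to 1.51).

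Thbs1 encodes thrombospondin 1, which can activate latent TGF-β and inhibits vessel growth. Its counts were 2016 (sham), 794 (excision) and 1677 (PNU-282987). Excision stood apart as the low library. Thbs1 was 2.41-fold lower in excision than in sham (2.22 to 2.62) and 2.02-fold higher in PNU-282987 than in excision (1.85 to 2.20), just inside the 2-fold limit. PNU-282987 was 1.195-fold lower than sham (1.12 to 1.28).

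Cthrc1 encodes a secreted protein with a short collagen triple helix that is induced in activated fibroblasts. Its counts were 475 (sham), 104 (excision) and 315 (PNU-282987), in the same order as Thbs1 but further apart. Cthrc1 was 4.34-fold lower in excision than in sham (3.50 to 5.42), the largest ratio of any of the 10 genes in these comparisons. PNU-282987 was 2.90-fold higher than excision (2.31 to 3.65) and 1.499-fold lower than sham (1.30 to 1.73).

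Sparc encodes osteonectin, a collagen-binding matricellular protein needed for fibril assembly. Its counts were 17022 (sham), 10740 (excision) and 12422 (PNU-282987). Sham was the high library, and the other two were close. Sparc was 1.51-fold lower in excision (1.47 to 1.54) and 1.36-fold lower in PNU-282987 (1.33 to 1.39) than in sham, and 1.11-fold higher in PNU-282987 than in excision (1.08 to 1.13).

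Loxl2 encodes a lysyl oxidase-like enzyme that crosslinks collagen. It had counts of 326 (sham), 91 (excision) and 86 (PNU-282987). Sham was high, and excision and PNU-282987 could not be told apart (1.11-fold lower in PNU-282987, 0.815 to 1.504). Loxl2 was 3.41-fold lower in excision (2.69 to 4.34) and 3.77-fold lower in PNU-282987 (2.96 to 4.84) than in sham. The ratios of Cthrc1 and Loxl2 could not be told apart in excision against sham (Cthrc1 relative to Loxl2 0.785, 0.566 to 1.09) but differed in PNU-282987, where Cthrc1 was 3.198-fold higher relative to Loxl2 than in excision (2.18 to 4.71).

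**Figure D2:**
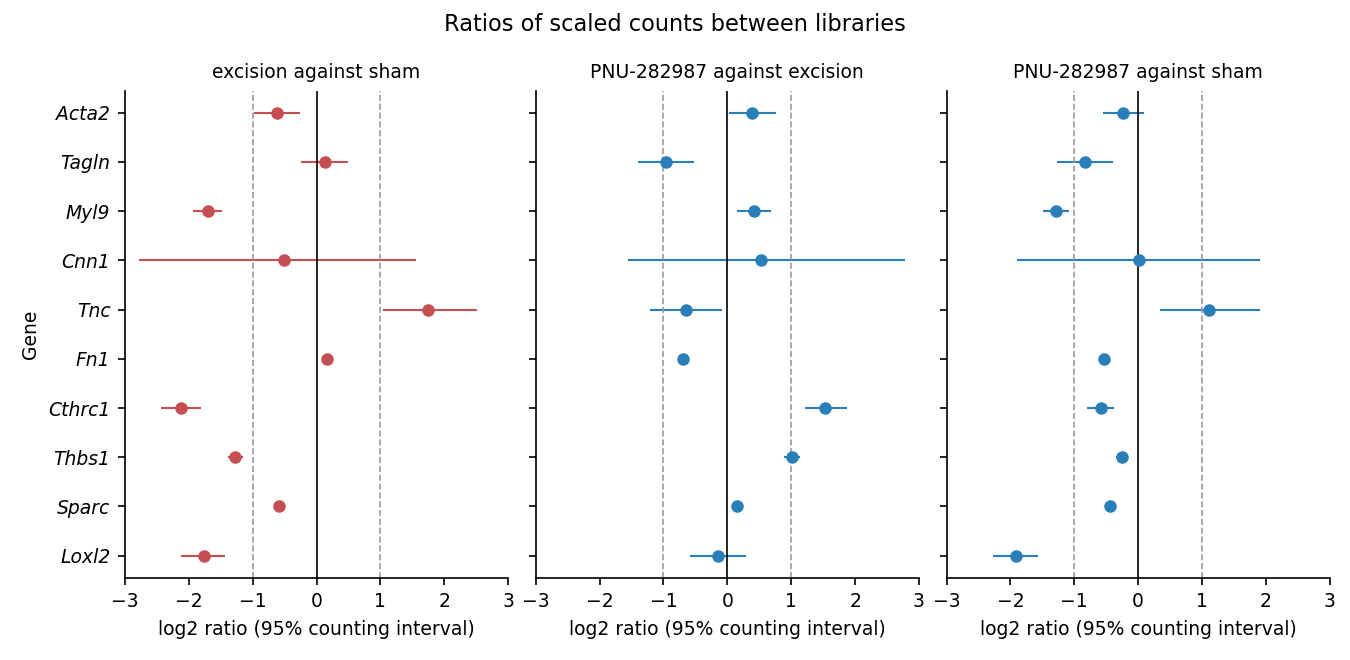
Log2 ratio of scaled counts for each gene (points) with its 95% counting interval (bars), in 1 panel for each comparison. Dashed lines mark 2-fold. Cthrc1, Loxl2, Myl9 and Thbs1 lie left of the lower line in excision against sham, and Cthrc1 and Thbs1 reach the upper line in PNU-282987 against excision.

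In PNU-282987 against excision, 2 of the 9 measured genes were higher (Cthrc1 and Thbs1) and 0 were lower. Over all 14171 genes with a ratio, 3.90% were higher and 5.62% lower. The median log2 ratio was 0.14 for the 9 genes and 0.01 for all genes. Tagln, Fn1 and Tnc had intervals wholly below equal levels without reaching 2-fold, and Acta2, Myl9 and Sparc had intervals wholly above. In PNU-282987 against sham, 2 genes were lower (Loxl2 and Myl9) and 1 was higher (Tnc), where 4.96% of 14161 genes were lower and 2.58% higher. The median log2 ratio there was -0.53 for the 9 genes and 0.00 for all genes, and 8 of the 9 ratios were below equal levels. The 3 comparisons share libraries, so they are not independent of one another.

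Acta2, Myl9, Cthrc1, Thbs1 and Sparc had the order sham, PNU-282987, excision from high to low. For Acta2 the first 2 of these did not differ beyond counting error. Tagln and Fn1 were highest in excision and lowest in PNU-282987, Loxl2 was highest in sham and lowest in PNU-282987, and Tnc ran from excision through PNU-282987 to sham. Summed over the 10 genes the level was 668 CPM in the sham library, 480 in that from excision and 480 in that from PNU-282987, of which Sparc made 65.3%, 60.3% and 66.6%. The summed level of the 4 contractile genes was 25.1, 11.8 and 12.8 CPM, most of it Myl9 in sham. The genes outside the 10 whose ratios to sham lay nearest to the medians of the 10 (-0.60 for excision and -0.49 for PNU-282987, log2) included Zfp267, Rpgrip1l, P3h3 and Btg2, at distances of 0.0057 to 0.025 over 3 libraries. Of the 10534 genes searched 29 lay within 0.1.

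Stromal transcripts differed between the libraries in both directions. Of 12 keratocyte markers in excision against sham 4 were lower and 1 higher, with a median log2 ratio of -0.68, and 2 were higher and 1 lower in PNU-282987 than in excision. In PNU-282987 against sham 0 of the 12 were higher or lower. Keratocan (Kera), a keratan sulfate proteoglycan that defines keratocytes, had counts of 7395 (sham), 3217 (excision) and 3716 (PNU-282987). The marker with the largest ratio went the other way: Clec3b, which encodes tetranectin, had counts of 2 (sham), 73 (excision) and 9 (PNU-282987), 38.4-fold higher in excision than in sham (10.3 to 323). No marker of the list was at 0 in any library. Its summed level was 18841 CPM in the sham library, 18551 in that from excision and 20267 in that from PNU-282987, of which 91.3%, 94.6% and 93.9% was Aldh3a1, a crystallin enzyme that the corneal epithelium also expresses. Without Aldh3a1 and Aldh1a1 the 10 remaining markers summed to 1422, 819 and 938 CPM, and Dcn alone made 46.7% of this smaller sum in sham. The choice of this sum was made after the values were seen.

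Relative to those 10 keratocyte genes, the picture of excision against sham changed for several members. Acta2 could not be told from the keratocyte genes (1.13-fold, 0.883 to 1.45) and Sparc was 1.15-fold higher (1.13 to 1.18). Both had been lower on the scale of the whole library. Tagln was 1.90-fold higher (1.47 to 2.46), Fn1 1.94-fold higher (1.87 to 2.02) and Tnc 5.81-fold higher (3.56 to 9.86). Below the keratocyte genes were Cthrc1 at 2.50-fold lower (2.02 to 3.12), Loxl2 at 1.96-fold lower (1.55 to 2.50), Myl9 at 1.88-fold lower (1.60 to 2.21) and Thbs1 at 1.39-fold lower (1.28 to 1.51). On this scale the median log2 ratio of all genes was 0.79, because the keratocyte transcripts were themselves 1.74-fold lower in excision. Of all genes called on this scale 93.04% were higher, against 42.2% on the scale of the whole library.

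In PNU-282987 against sham the same scale left Cthrc1 (1.01-fold, 0.873 to 1.17) level with the keratocyte genes. Tagln could not be told from them either (1.17-fold lower, 0.864 to 1.59). Above them were Fn1 at 1.05-fold (1.01 to 1.10), Sparc at 1.11-fold (1.09 to 1.14), Thbs1 at 1.27-fold (1.19 to 1.35) and Acta2 at 1.29-fold (1.03 to 1.61). Loxl2 was 2.49-fold lower (1.96 to 3.19) and Myl9 1.61-fold lower (1.40 to 1.86), and Tnc was 3.25-fold higher (1.92 to 5.67). Loxl2 and Myl9 therefore stayed below sham on both scales in both libraries. Tnc was above sham on both, but could not have changed side, because the second scale raises every ratio to sham. The median log2 ratio of all genes was 0.60 on this scale, and 85.5% of called genes were higher, against 34.2% on the scale of the whole library.

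**Figure D3:**
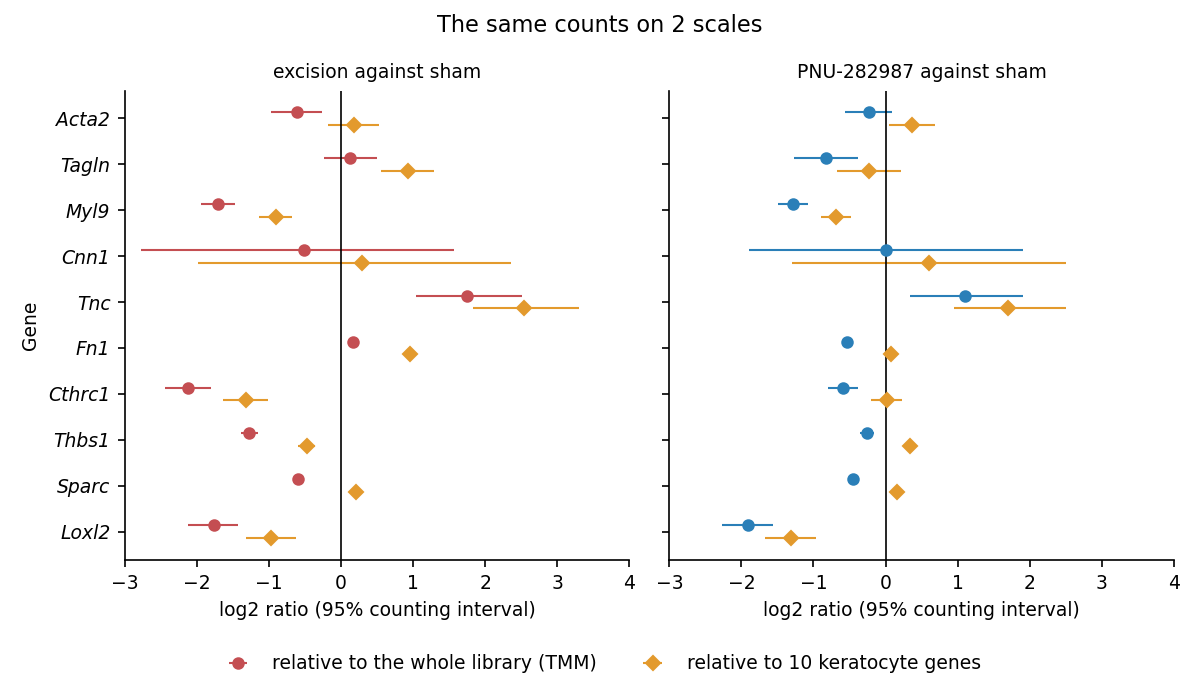
Log2 ratio to sham of each gene with its 95% counting interval, for excision (left) and PNU-282987 (right), on the scale of the whole library (circles) and relative to 10 keratocyte genes (diamonds). The second scale moves every gene to the right by the same amount within a panel. Acta2 and Sparc cross the line of equal levels in both panels, Cnn1 in excision only, and Cthrc1, Fn1 and Thbs1 in PNU-282987 only. Cthrc1, Loxl2, Myl9 and Thbs1 stay left of the line in excision.

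Corneal endothelial transcripts were mostly lower in excision. Of 9 markers 7 were lower in excision than in sham (median log2 ratio -2.27) and 6 were higher in PNU-282987 than in excision (1.57). Slc4a11, a transporter of the corneal endothelium, had 6183, 1577 and 2379 counts in the sham, excision and PNU-282987 libraries. The list summed to 1838, 713 and 1420 CPM, and none of its markers was at 0. The part of keratocyte or endothelial tissue in the lower Cthrc1, Loxl2, Myl9 and Thbs1 of the excision library was not tested.

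Smooth muscle and pericytes also make Acta2, Tagln, Myl9 and Cnn1. Of 12 listed markers that the counts cover, 7 were measured, with 3 lower and 1 higher in excision compared with sham (median log2 ratio -0.67). Synpo2, an actin-associated protein of muscle, had 104, 26 and 63 counts in the sham, excision and PNU-282987 libraries, and Rgs5, a pericyte gene, had 4, 35 and 35. Smooth muscle myosin Myh11, which was picked with its values in view, had counts of 95, 40 and 84. Kcnj8 was at 0 in sham and PNU-282987, and the summed level of 133, 181 and 118 CPM was mostly Notch3 (4759, 6473 and 4303 counts). Of 11 skeletal muscle markers only 2 were measured (summed level 17.7, 18.9 and 10.1 CPM), with Myh1 at 0 in sham and PNU-282987 and Myh4 at 0 in excision. Of 8 pigment cell markers 4 were measured, with summed levels of 19.1, 16.1 and 12.9, and Tyr and Oca2 were at 0 in excision. Vascular and lymphatic markers summed to 7.30, 9.19 and 7.47 CPM, with Tek and Emcn at 0 in sham. Myoepithelial cells of glands make Acta2 and Cnn1 too, and of 6 measured markers, Acta2 among them, Krt17 was higher and Myh11 lower in excision compared with sham, with summed levels of 426, 680 and 700 CPM that were mostly Krt14 and Trp63. Of 7 trabecular meshwork markers 1 was higher and 0 lower in excision compared with sham (440, 310 and 337 CPM). The higher one was Myoc, with 25, 118 and 37 counts in the sham, excision and PNU-282987 libraries. Most of the summed level was Angptl7 (287, 164 and 214 CPM), which is also on the keratocyte list. The part of any of these cells in the contractile genes was not tested.

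Blood and immune markers differed between the same libraries. Of 5 measured red blood cell markers 4 were lower in excision than in sham, with summed levels of 71.9, 17.2 and 9.71 CPM in the sham, excision and PNU-282987 libraries. Of 9 macrophage markers 6 were higher in excision (28.6, 60.0 and 43.7 CPM) and none was at 0, and 7 of 8 measured retina markers were lower there (21.2, 7.35 and 33.04 CPM). Macrophages can make Fn1 and Thbs1, and their part in these genes was not tested.

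Most of the other actin cytoskeleton genes on a fixed list were within 2-fold, with ratios on both sides of equal levels. Of 18 measured partners of actin and myosin 1 was lower in excision than in sham and 0 were higher, with a median log2 ratio of -0.02, and 1 was higher in PNU-282987 than in excision. That gene was Cald1, which encodes caldesmon, an actin-binding regulator of contraction, with counts of 795 (sham), 251 (excision) and 705 (PNU-282987). Below 2-fold but with intervals clear of equal levels, Tpm1, a tropomyosin gene, was 1.81-fold lower in excision than in sham (1.642 to 2.0003) and Actn1, an α-actinin gene, 1.67-fold lower (1.42 to 1.96). Flna, the filamin A gene, was 1.52-fold higher (1.45 to 1.60) and Myh9, a non-muscle myosin gene, 1.489-fold higher (1.44 to 1.53). The cytoplasmic actin genes Actb (73377, 81908 and 79662 counts) and Actg1 (98410, 103170 and 99262 counts) were within 2-fold in every comparison, as was Tagln2 (2399, 2833 and 2527 counts), a non-muscle relative of Tagln. In excision against sham Myl9 lay on the same side of equal levels as Cald1, Tpm1 and Actn1. Flna and Myh9 lay on the other side, and the abundant actin genes had ratios near 1.

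Regulators of the programme were mostly within 2-fold. Among 9 measured genes of the SRF, MRTF and YAP group 0 were higher or lower in excision against sham or in PNU-282987 against sham. Ccn2, the connective tissue growth factor gene and a target of YAP and TGF-β, was 2.16-fold higher in PNU-282987 than in excision (1.97 to 2.38), at 1054, 656 and 1485 counts in the sham, excision and PNU-282987 libraries. Srf itself had 1358, 1400 and 1165 counts. Of 14 TGF-β ligands, receptors, SMADs and targets 1 was lower in excision than in sham, namely Tgfb2 (144, 48 and 86 counts), 2.85-fold lower (2.04 to 4.04).

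Family relatives of the matricellular genes also went both ways. Of 12 measured relatives 4 were lower and 1 higher in excision compared with sham (median log2 ratio -0.55), and 3 were higher and 1 lower in PNU-282987 than in excision. The SPARC family genes Spock1 (56, 2 and 37 counts in the sham, excision and PNU-282987 libraries), Spock2 (1093, 279 and 655) and Smoc1 (1187, 281 and 593) were low in excision and intermediate in PNU-282987. Tnxb, which encodes the tenascin of loose connective tissue, had 17, 75 and 20 counts, high in excision as Tnc was, and was 4.64-fold higher there than in sham (2.71 to 8.38). Unlike Tnc it was near sham in PNU-282987 (1.18-fold, 0.589 to 2.41). Tnn, another tenascin gene, had 20, 15 and 7 counts.

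Measured thrombospondin relatives stayed within 2-fold. Thbs2 had 623, 623 and 564 counts and Thbs4 1284, 912 and 879 in sham, excision and PNU-282987, and Thbs3 had 51, 59 and 36. Comp, which encodes thrombospondin 5, was below the count minimum at 2, 9 and 2 counts. Sparcl1, the closest relative of Sparc, had 432, 225 and 252 counts and was 1.83-fold lower in excision than in sham (1.55 to 2.15).

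Of 14 measured lysyl oxidase and fibrillar matrix genes 3 were lower and 1 higher in excision compared with sham, and 3 were lower and 0 higher in PNU-282987 than in sham. Among relatives of Loxl2, Loxl1 had 687, 316 and 460 counts in the sham, excision and PNU-282987 libraries and was 2.07-fold lower in excision than in sham (1.81 to 2.37), while Lox (82, 62 and 99 counts) and Loxl3 (51, 33 and 43) were not told apart from sham in either library. Col12a1, a fibril-associated collagen, had 6612, 2148 and 3998 counts. A second group was low in PNU-282987 instead: Col3a1, a fibrillar collagen of scars, had 241, 261 and 99 counts and Eln, the elastin gene, 17, 47 and 4. Col5a1 (1081, 669 and 489 counts) was 2.198-fold lower in PNU-282987 than in sham (1.97 to 2.45).

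Receptors for these proteins went both ways. Of 11 measured integrin and related receptor genes 2 were lower and 1 higher in excision compared with sham, with a median log2 ratio of -0.06. Itgb8, a subunit of a receptor that activates latent TGF-β, had counts of 27 (sham), 3 (excision) and 57 (PNU-282987), and Itgb3 had 20, 4 and 11. Itga9, which encodes a subunit of a tenascin C receptor, had 13, 26 and 17 counts and was 2.10-fold higher in excision than in sham (1.04 to 4.46). Its level in PNU-282987 could not be told from sham (ratio 1.32, 0.602 to 2.94) or from excision (ratio 0.625, 0.318 to 1.20). With scaling to total counts Itga9 no longer met the criteria for a higher gene, which left 0 in the list. Itga5 of the fibronectin receptor had 15, 27 and 18 counts and Itga4 15, 27 and 20, both 1.89-fold higher in excision than in sham, with an interval that included equal levels (0.972 to 3.83).

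Of 12 other measured genes of myofibroblasts and activated fibroblasts, 2 were lower and 1 higher in excision compared with sham, and 0 were higher or lower in PNU-282987 than in sham. Col8a1, a collagen of Descemet's membrane that activated fibroblasts also make, had 2028, 272 and 1603 counts in the sham, excision and PNU-282987 libraries. Prrx1, a mesenchymal transcription factor, had 549, 228 and 498. Thy1, a surface protein of fibroblasts and also of T cells and neurons, had 9, 111 and 17 counts, high in excision. Lrrc15, a marker of activated myofibroblasts in several tissues, had counts of 0 (sham), 1 (excision) and 0 (PNU-282987), and a count of 0 allows up to 3 counts, or 0.0768 CPM in sham.

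**Figure D4:**
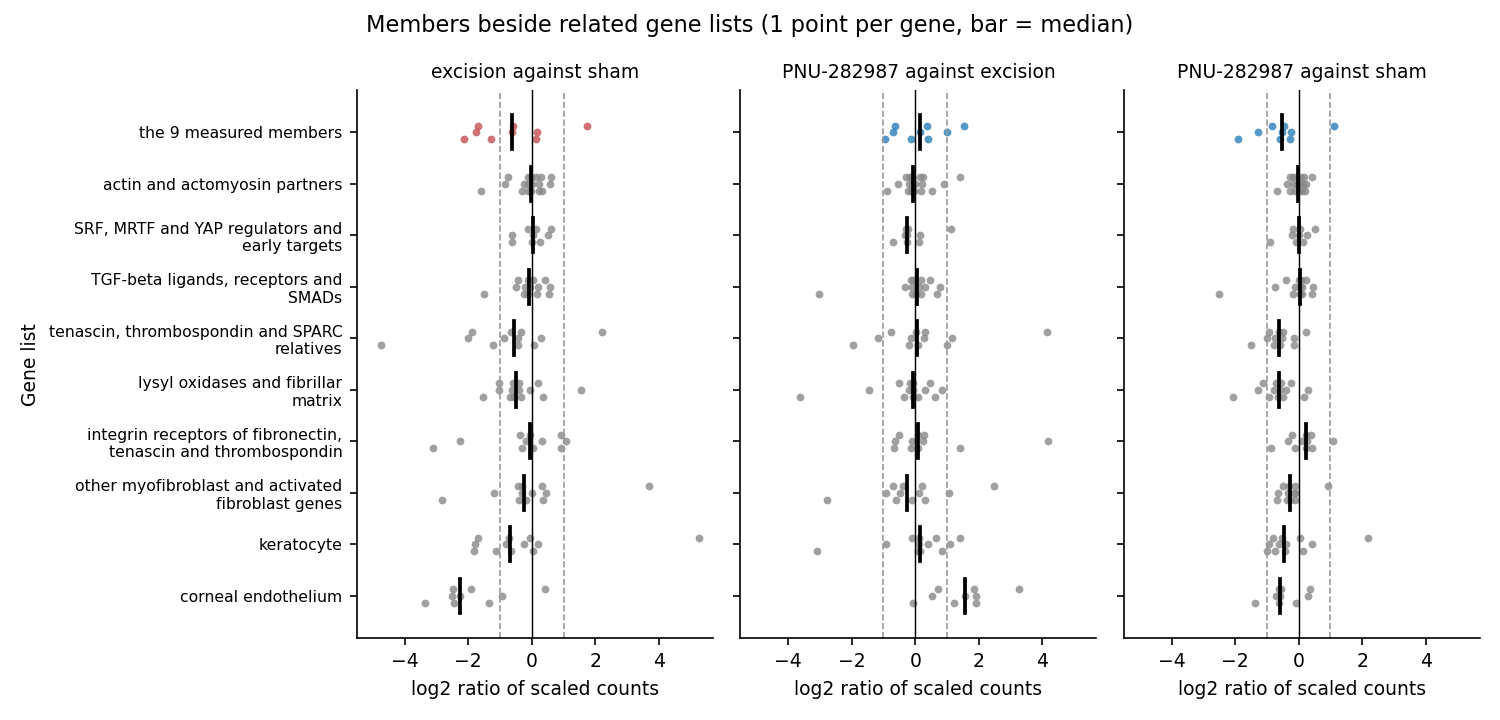
Log2 ratio of scaled counts for the 9 measured members (coloured) and for the measured genes of 7 related lists, the keratocyte markers and the corneal endothelial markers (grey), with 1 point for each gene, a black bar at each median and dashed lines at 2-fold. In excision against sham the members have a median of -0.62. The keratocyte markers sit at -0.68, the tenascin, thrombospondin and SPARC relatives at -0.55 and the lysyl oxidase and fibrillar matrix genes at -0.49. The actin partners sit at -0.02 and the endothelial markers at -2.27.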

How the data were processed

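RNA from cornea was sequenced in 3 libraries, 1 per group, and the authors deposited 1 table of whole-number read counts per gene. HTSeq and R 3.2.0 appear in the submitters' processing notes. Aligner, genome build, annotation and strand setting were not given in the sources used here. Columns were assigned by the sample titles and groups by the treatment label. Scaling used the TMM method of edgeR 4.0.16 under R 4.3.3 (factors 1.04 for sham, 0.985 for excision, 0.980 for PNU-282987). The remaining steps used Python 3.11.15, NumPy 2.4.6, pandas 2.3.3, SciPy 1.17.1 and matplotlib 3.10.9. A gene was called measured if any library held 20 or more counts of it. Ratios were formed without a pseudocount, 3 counts replaced a count of 0, and no ratio was given where both libraries had 3 counts or fewer. Intervals were exact conditional binomial (Clopper-Pearson) intervals at 95%. No molecular identifiers are named for these reads, so intervals cover counting error only. The script was checked on simulated counts. Levels per kilobase used the union of protein-coding exons in GENCODE M21 (GRCm38).

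The members, the 7 related lists and the 14 marker lists were chosen with earlier results of these data known. Genes named are the 10 members, at most 4 genes past the threshold with the largest ratio per list, family relatives of members, and the 5 genes nearest in pattern with at least 100 counts in every library. Actb, Actg1, Srf, Krt12, Kera, Slc4a11, Itga5, Krt14, Trp63, Krt17, Myh11, Notch3, Aldh3a1, Lrrc15 and the markers at 0 were named outside that rule, after their values were seen. A few genes selected by the rule are left out of the text. Alternatives were scaling to total counts, by DESeq2 1.42.0 size factors or to keratocyte markers, other count minimums, and thresholds of 1.5-fold and 3-fold.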

Additional observations from a re-analysis of the deposited data

How the results depend on the processing

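Every group held 1 library, which leaves no replicate to drop. No paired analysis was possible because each group had 1 library. Of the 10 genes, all 30 log2 ratios kept their sign with DESeq2 size factors, and 29 of 30 did with total counts and with the full keratocyte sum, Cnn1 in PNU-282987 against sham being the exception in both. Relative to the keratocyte sum without Aldh3a1 and Aldh1a1, chosen after the data were seen, 9 of 30 changed sign.

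In excision against sham that last scale gave 1 lower gene and a median of 0.18, and a minimum of 100 counts gave 0 higher, since Tnc was then left out. In PNU-282987 against excision the full keratocyte sum gave 1 higher and 1 lower gene with a median of 0.017, and the sum without Aldh3a1 and Aldh1a1 gave 1 and 1 with a median of -0.052. A 1.5-fold threshold gave 3 lower genes there and a 3-fold threshold 0 higher. In PNU-282987 against sham the median was -0.61 with total counts, -0.63 with the full keratocyte sum, which gave 0 higher genes, and 0.070 with the sum without Aldh3a1 and Aldh1a1, which gave 1 lower. The 100-count minimum gave 0 higher genes there, and a 3-fold threshold gave 0 higher and 1 lower. The keratocyte sums rest on few genes, and the share of higher among all called genes went from 42.2% to 93.04% in excision against sham, from 40.96% to 26.4% in PNU-282987 against excision and from 34.2% to 85.5% in PNU-282987 against sham with the smaller sum. Of 1008 counts for the related and marker lists under the alternatives, 825 stayed within 1.5 times. Depth limited Cnn1, and Tnc in sham.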
